A study of Bos taurus with 8 samples.

Results

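Hyaluronan is a long, unsulfated sugar chain that cells extrude from the plasma membrane into the matrix around them. HAS2 is the synthase that builds it, and VCAN (versican) is a large proteoglycan that binds to it. TNFAIP6 and the heavy chains of the inter-alpha-trypsin inhibitor family, to which ITIH5 belongs, are known for cross-linking hyaluronan matrices. CD44 is its main surface receptor, and HYAL2 is a hyaluronidase tethered to the cell surface. These genes, HAS2 (ENSBTAG00000019892), VCAN (ENSBTAG00000014906), TNFAIP6 (ENSBTAG00000007239), ITIH5 (ENSBTAG00000013004), CD44 (ENSBTAG00000011578) and HYAL2 (ENSBTAG00000000484), were looked up by their symbols in the matrices, and this choice of genes was made with earlier results of these data known. They are 6 of 21880 genes in the count matrices.

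Cells of Belgian Blue cattle were studied by single-cell RNA sequencing through a cultured meat process, in order to follow each cell type from muscle into long-term culture. Semitendinosus muscles of 10 untreated donors (5 calves and 5 adults) were digested with collagenase, and 36129 cells were analysed in 5 libraries. Each library pooled all donors of a timepoint: cells directly after isolation (muscle), after 72 h on fibronectin in serum-free growth medium (passage 0), and at passages 2, 5 and 8. From passage 2 the donors differed in culture. Donors 1, 2 and 9 were kept as unsorted cells on fibronectin, donors 5, 6 and 10 as sorted satellite cells (SCs, the muscle stem cells) on laminin, and donors 4, 7 and 8 as sorted fibro-adipogenic progenitors (FAPs, the mesenchymal cells of the muscle interstitium) on collagen I. Donors 2, 4, 5, 7 and 10 were calves, donors 6, 8 and 10 were male, and donor 3 was present in muscle alone. Since each timepoint was a separate library, timepoint and library cannot be told apart.

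The libraries held 2772 to 10405 cells, with a median depth of 4184 UMIs per cell in muscle and 18340 to 27239.5 UMIs in culture, and pairs of libraries shared 4 to 29 cell barcodes. The deposited annotation gave 11 cell types in muscle, 7 at passage 0 and 2 (FAPs and SCs) from passage 2 on. Defining markers of the annotated types were highest in their own type, apart from ITGA7 (higher in smooth muscle and mesenchymal cells, SMMCs), CLDN5 (higher in lymphatic endothelial cells, LECs) and PTPRC (higher in lymphocytes) in muscle, and CHRDL2, ITGA7 (both higher in SMMCs) and CLDN5 (higher in LECs) at passage 0. Levels below are UMI counts summed over the cells of a type in each donor (at least 10 cells), scaled to the total of each sum with TMM factors (CPM), and given as mean ± SD over donors. A level is therefore relative to all other RNA of the same cells. Pooled levels, where named, are UMIs over the total of all cells of a type without TMM factors. Their intervals cover counting error only. As the UMIs come from transcript ends, levels were compared within a gene and not between genes. The annotated types were clusters of the same expression values, so that differences between types are described without a test. Orders of cell types below cover the 7 types of muscle and the 6 of passage 0 that had at least 10 cells in 3 or more donors, which leaves out glial cells, tenocytes, neutrophils and myocytes.

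The synthase HAS2 was highest in FAPs among the muscle types with enough cells per donor. Its FAP level was 52.6 ± 19.5 CPM (n = 10), with a lowest donor at 12.3, a median of 49.7 and a highest donor at 74.9 CPM, and FAPs were above lymphocytes, the next type at 2.68 ± 8.48 CPM, in 10 of 10 donors. The lymphocyte level came from 1 donor at 26.8 CPM, with the other 9 at 0. The 12 glial cells of muscle, too few for a level per donor, held 7 HAS2 UMIs, a pooled level of 174.8 CPM (exact Poisson interval 70.29 to 360.2 CPM) against 62.5 CPM pooled over FAPs. In SCs 9 of 10 donors were at 0, from 1 UMI in 647 cells. SMMCs (1.70 ± 2.38 CPM), macrophages (0.818 ± 1.74 CPM) and vascular endothelial cells (VECs, 0.592 ± 1.87 CPM) did not differ from each other beyond the spread of the donor differences. No HAS2 UMI was seen in 81 LECs of muscle, which allows a level of up to 6.78 CPM at the limit of 3 counts (8.34 CPM by the exact Poisson interval). After thinning each cell to 2000 UMIs, 8.83 ± 2.42% of muscle FAPs held a HAS2 UMI (19.2% without thinning, at a median of 6213 UMIs), against 0.154 ± 0.487% of muscle SCs (0.132% without thinning, at a median of 3861 UMIs).

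VCAN was likewise highest in muscle FAPs, with 500 ± 112 CPM (n = 10), from 355 over a median of 498 to 693 CPM. The lowest FAP value lay above the highest value of each other type in the order. Macrophages came next with a wide spread, 59.3 ± 83.5 CPM and 0 to 229 CPM over donors. SMMCs and lymphocytes (both 11.8 CPM), SCs (8.80 ± 9.60 CPM), LECs (8.69 ± 17.4 CPM, n = 4) and VECs (7.05 ± 7.79 CPM) could not be ordered beyond the spread between donors.

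TNFAIP6 had its highest level in muscle FAPs too, at 312 ± 163 CPM (n = 10), ranging over donors from 123 to 672 CPM with a median of 274 CPM. The next were SMMCs with 50.4 ± 27.4 CPM, without overlap with FAPs, and lymphocytes with 37.0 ± 92.8 CPM, where 7 of 10 donors were at 0 and donor 6 reached 295 CPM. VECs held 27.8 ± 9.65 CPM and SCs 16.1 ± 28.9 CPM, the latter with donor 6 at 96.1 CPM and the other donors at 0 to 19.8 CPM.

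ITIH5 had a different order. Muscle SCs held 875 ± 161 CPM (699 to 1138 CPM, median 789 CPM, n = 10) and FAPs 342 ± 66.2 CPM (240 to 502 CPM, median 342 CPM), and SCs were above FAPs in 10 of 10 donors without overlap. The 12 glial cells stood above both, at a pooled 1474 CPM (interval 1122 to 1901 CPM) against 977.9 CPM pooled over SCs. LECs (41.5 ± 33.2 CPM, n = 4), VECs (35.9 ± 33.7 CPM) and SMMCs (23.1 ± 16.1 CPM) were lower, with LECs below VECs in the 4 donors that had both, and macrophages were the lowest at 2.18 ± 3.65 CPM. Of the thinned muscle cells, 78.9 ± 8.83% of SCs and 46.0 ± 4.53% of FAPs held an ITIH5 UMI.

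The receptor CD44 was highest in immune cells of muscle. Lymphocytes held 492 ± 160 CPM and macrophages 351 ± 132 CPM (n = 10 each), and lymphocytes were the higher in 7 of 10 donors, which is within the spread of the donor differences. FAPs followed with 148 ± 42.0 CPM (102 to 222 CPM), below macrophages and above SMMCs (67.2 ± 45.0 CPM) in 10 of 10 donors. SCs held 41.4 ± 19.3 CPM, from 7.82 over a median of 38.4 to 75.7 CPM, and VECs 22.9 ± 11.8 CPM. LECs were at 0 in all 4 donors with enough cells, while 5 UMIs were counted over all 81 LECs.

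HYAL2 was an endothelial gene. Muscle VECs held 233 ± 166 CPM (n = 10) and LECs 228 ± 129 CPM (n = 4, with 111, 159, 236 and 406 CPM), and the means differed by less than the spread of the donor differences. In the 4 donors with both, however, LECs were the higher in 4 of 4, with VECs minus LECs at -107.5 ± 129.1 CPM. These were calves 4, 7 and 10 and adult 8, while the VEC mean covered 5 calves and 5 adults. The 2 means thus differ in their mix of ages. Pooled over all cells without TMM factors, LECs held 449.8 CPM (81 cells, interval 389.5 to 516.8 CPM) and VECs 197.5 CPM (184.2 to 211.6 CPM). The pooled LEC value lay above each of the 4 donor values and is not on their scale. These intervals do not cover the spread between donors. FAPs (16.1 ± 6.07 CPM), SMMCs (15.6 ± 9.03 CPM), SCs (12.8 ± 6.32 CPM) and macrophages (12.1 ± 9.34 CPM) formed a group whose neighbours in the order did not differ beyond their spread. The plot of levels by cell type shows these orders beside those at passage 0.

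**Figure D1:**
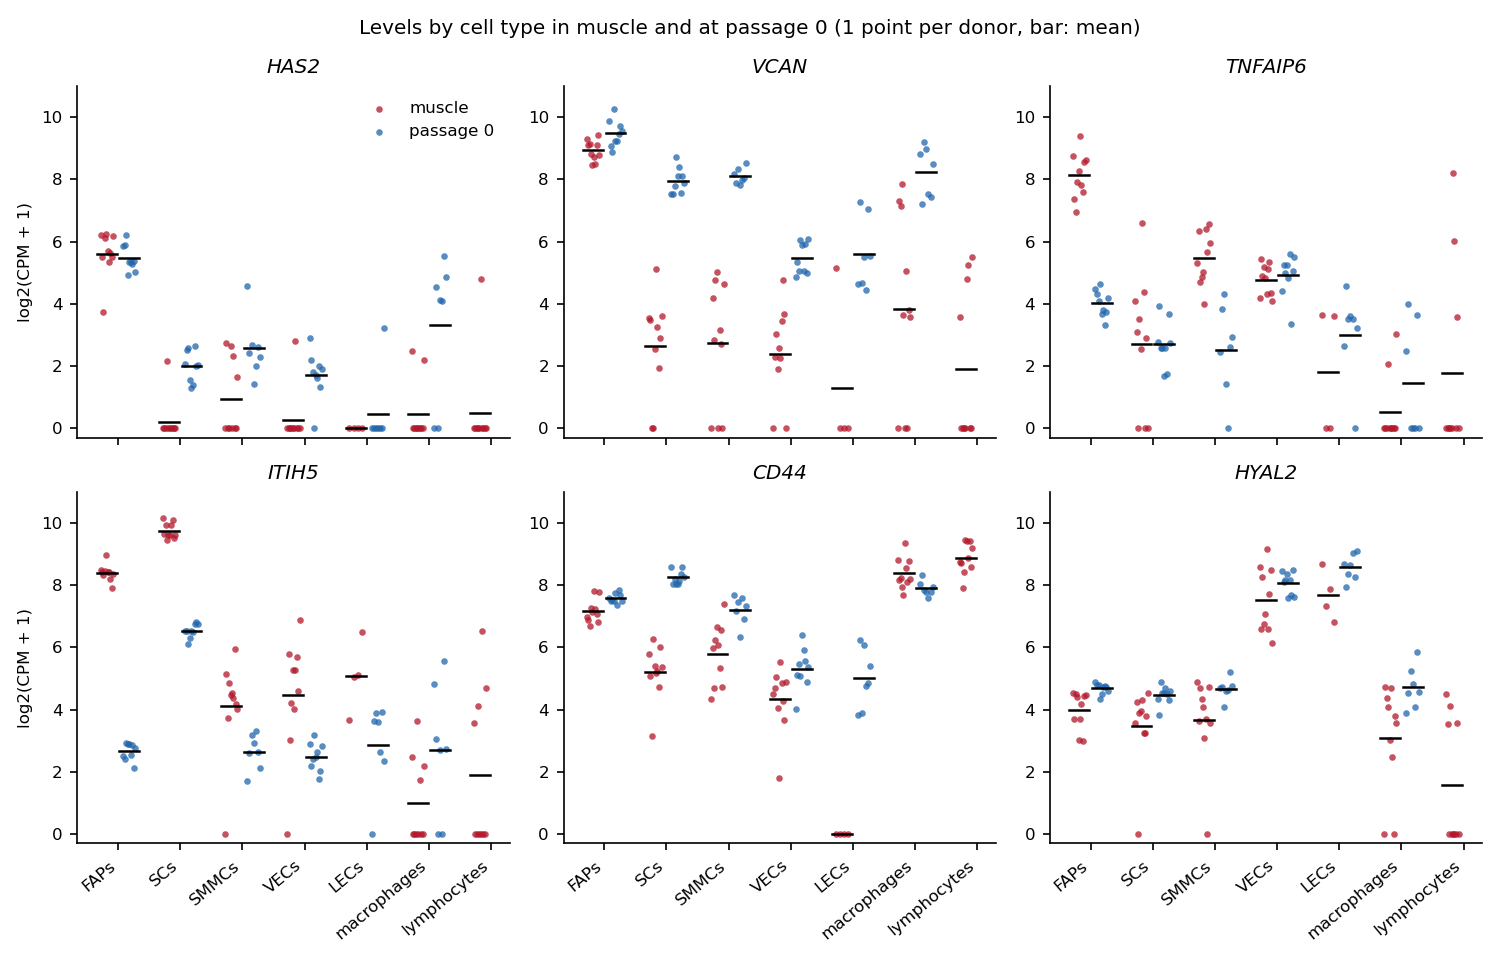
Levels of the 6 genes by annotated cell type in muscle (red) and at passage 0 (blue), as log2(CPM + 1) on the vertical axis, with 1 point per donor and a bar at the mean of the plotted values. Among the plotted types of muscle, HAS2, VCAN and TNFAIP6 are highest in FAPs (means of 52.6, 500 and 312 CPM), ITIH5 in SCs (875 CPM), CD44 in lymphocytes (492 CPM) and HYAL2 in VECs and LECs (233 and 228 CPM), and VCAN of SCs, SMMCs, VECs and macrophages lies higher at passage 0. The HYAL2 means cover 10 donors for VECs and 4 for LECs, with different mixes of ages.

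The change from muscle to passage 0 was tested per cell type in edgeR (quasi-likelihood F test over all genes tested, Benjamini-Hochberg adjustment). Calls required both an adjusted p under 0.05 and a log2 fold change beyond 1 in size, and the background is the percent of all tested genes that met the same rule. The backgrounds of this comparison were 29.6% to 43.4%, and the counts of called members are to be read against them.

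In FAPs, both genes linked to heavy chain cross-linking fell, and the synthase, the proteoglycan, the receptor and the hyaluronidase were not called. All 6 genes were tested and 2 were called, both lower, against 43.4% of all tested genes (22.5% lower and 20.9% higher). ITIH5 fell to 5.41 ± 1.15 CPM (3.34 to 6.53 CPM, median 5.86 CPM, n = 9), far below the lowest muscle FAP value of 240 CPM. Its log2 fold change was -6.13 (SE 0.14, adjusted p = 3.21e-21), with 0 of 9 donors higher at passage 0. TNFAIP6 fell to 15.9 ± 4.94 CPM (9.07 to 24.1 CPM, median 15.9 CPM), again without overlap with muscle. Its log2 fold change was -4.46 (SE 0.30, adjusted p = 3.95e-11), and it was lower in all 9 donors. The share of thinned FAPs with an ITIH5 UMI went from 46.0% to 1.59 ± 0.683%, and with a TNFAIP6 UMI from 36.6% to 3.04 ± 1.23%.

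The other members moved less in FAPs, where 7429 of 9208 tested genes had an unadjusted p below 0.05. HYAL2 was at 24.8 ± 2.86 CPM, higher in 9 of 9 donors, by a log2 fold change of 0.61 (adjusted p = 0.00339), under the size needed for a call. VCAN stood at 740 ± 234 CPM (467 to 1219 CPM, median 705 CPM), higher in 8 of 9 donors by 0.42 on the log2 scale (adjusted p = 0.0243). HAS2 kept 45.3 ± 14.4 CPM (29.7 to 73.2 CPM, median 39.8 CPM) with a log2 fold change of -0.45 (adjusted p = 0.0562), and CD44 held 191 ± 20.8 CPM with a log2 fold change of 0.19 (adjusted p = 0.142). FAPs thus had the highest mean level of HAS2 and VCAN among the types at passage 0 too.

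In SCs, the receptor and the proteoglycan rose while the heavy chain gene fell. All 3 members tested were called, against 34.3% of all tested genes, and HAS2, TNFAIP6 and HYAL2 did not pass the filter on low counts. CD44 reached 306 ± 49.0 CPM (259 to 383 CPM, median 292 CPM, n = 9), above every muscle SC value, with a log2 fold change of 2.53 (SE 0.17, adjusted p = 1.54e-12) and 9 of 9 donors higher. VCAN reached 257 ± 79.2 CPM (183 to 416 CPM, median 234 CPM), where the highest muscle value was 33.4 CPM. Its log2 fold change was 4.25 (SE 0.32, adjusted p = 1.12e-10), in 9 of 9 donors. ITIH5 fell to 92.5 ± 14.4 CPM (68.6 to 112 CPM, median 90.4 CPM), with a log2 fold change of -3.63 (SE 0.12, adjusted p = 7.5e-18), lower in 9 of 9 donors. Among the types with a level per donor, SCs were the highest for ITIH5 at passage 0 as in muscle, without overlap with the next type, and held the highest mean level of CD44 (306 CPM). Macrophages were next (240 CPM), below SCs in 6 of 7 donors and with overlap, at a timepoint where lymphocytes were not among the annotated types.

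In the other cell types VCAN was the called member among those that passed the filter on low counts. In VECs it went to 45.7 ± 16.2 CPM (28.0 to 66.5 CPM, n = 9), with a log2 fold change of 2.46 (SE 0.38, adjusted p = 4.16e-06) and 9 of 9 donors higher. It was the 1 called of 4 members tested, against 35.1% of all genes (15.6% higher), and HYAL2 (log2 fold change -0.04, interval -0.75 to 0.67, adjusted p = 0.926), TNFAIP6 (-0.26, adjusted p = 0.357) and CD44 (0.61, adjusted p = 0.0682) were not. The sign of TNFAIP6 went against its donor levels on the common scale, 27.8 CPM in muscle and 31.7 CPM at passage 0, where 6 of 9 donors were higher. In SMMCs VCAN went to 280 ± 51.1 CPM (226 to 368 CPM, n = 7), by 3.77 on the log2 scale (SE 0.26, adjusted p = 7.38e-12, 7 of 7 donors), and CD44, the other member tested, had a log2 fold change of 0.64 (adjusted p = 0.0566) against a background of 36.4% (15.1% higher). With all sums thinned to equal totals, VCAN of VECs and of SMMCs fell under the filter on low counts, so that 0 members were called in either type. ITIH5 did not pass the filter in VECs and SMMCs, nor TNFAIP6 in SMMCs, and these were called lower without the filter (-3.23 and -2.29 for ITIH5 in VECs and SMMCs, -2.73 for TNFAIP6) and with at least 30 cells per donor (-3.46, -2.82 and -2.97). In macrophages VCAN went to 345 ± 179 CPM (148 to 590 CPM, n = 7), with a log2 fold change of 2.34 (SE 0.69, adjusted p = 0.00737). It was higher in 6 of 7 donors and its ranges in muscle and at passage 0 overlapped. Macrophage CD44 stood at 240 ± 40.4 CPM, by -0.82 on the log2 scale (adjusted p = 6.55e-04), under the size for a call, with a background of 34.6% (14.3% higher). In macrophages 1978 of 2896 tested genes had an unadjusted p below 0.05. In LECs HYAL2 alone was tested, with 394 ± 112 CPM at passage 0 and a log2 fold change of 0.14 (adjusted p = 0.779) against a background of 29.6%.

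At passage 0 the order of types for TNFAIP6 was changed. VECs were highest with 31.7 ± 11.9 CPM (9.11 to 47.6 CPM, n = 9), above FAPs in 8 of 9 donors, and LECs (9.76 ± 6.96 CPM), SMMCs (7.12 ± 6.59 CPM), SCs (6.30 ± 4.04 CPM) and macrophages (4.40 ± 6.26 CPM) did not differ from their neighbours in the order beyond the spread.

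**Figure D2:**
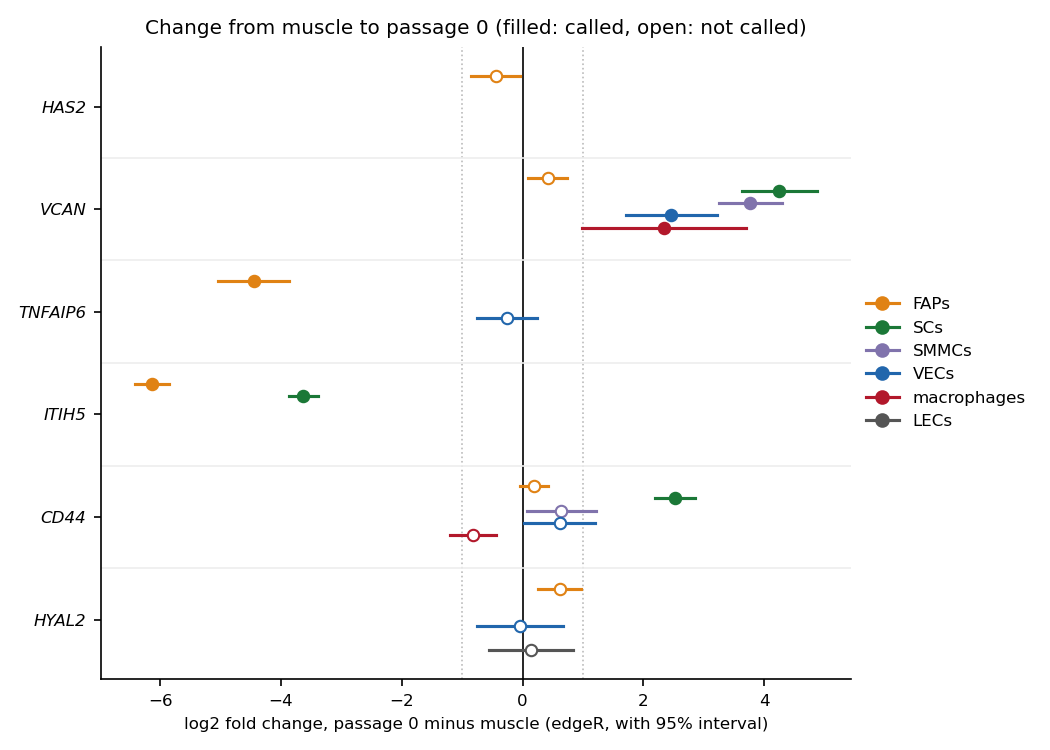
Log2 fold change from muscle to passage 0 of each of the 6 genes (rows) in each cell type in which it was tested (colours), from edgeR, with the interval of 95% as a line, filled where called and open where not, and dotted lines at the size needed for a call. ITIH5 lies at -6.13 in FAPs and -3.63 in SCs, TNFAIP6 at -4.46 in FAPs, CD44 at 2.53 in SCs, and VCAN between 2.34 and 4.25 in the 4 cell types other than FAPs.

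FAP marker genes had a higher median sum at passage 0 than in muscle in SCs, VECs, SMMCs and macrophages. The ranges of the sum overlapped between muscle and passage 0 in VECs and SMMCs. The summed level of PDGFRA, DCN, LUM and MFAP5 in SCs had a median of 128 CPM in muscle (68.5 to 854 CPM) and of 1507 CPM at passage 0 (1040 to 2235 CPM), and none of these 4 markers had a mean of 0 in any group given here, though MFAP5 was at 0 in at least 1 donor each of VECs, SMMCs and macrophages at passage 0. The same sum went from a median of 188 CPM (44.9 to 795 CPM) to 399 CPM (256 to 554 CPM) in VECs, from 118 CPM (37.3 to 1044 CPM) to 696 CPM (510 to 1070 CPM) in SMMCs and from 76.3 CPM (19.9 to 510 CPM) to 1302 CPM (970 to 1927 CPM) in macrophages. In FAPs it was 21290 to 27930 CPM in muscle and 3034 to 5235 CPM at passage 0.

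Set against the FAP level of the same donor, VCAN in SCs was 1.92 ± 2.29% in muscle and 36.4 ± 11.5% at passage 0. For the FAP markers at passage 0 these percentages in SCs were 76.3 ± 24.7% for LUM, 40.8 ± 10.5% for DCN, 22.3 ± 4.42% for PDGFRA and 14.5 ± 12.6% for MFAP5, and 7.29 ± 3.12% for HAS2. In SMMCs VCAN stood at 44.5 ± 9.30% of the FAP level, above DCN (21.8 ± 5.70%), MFAP5 (20.5 ± 20.5%), LUM (16.9 ± 2.84%) and PDGFRA (11.9 ± 3.90%). In VECs VCAN stood at 6.51 ± 2.35%, and the markers at 8.42% to 17.8%. In macrophages VCAN (44.5 ± 20.4%) and HAS2 (44.9 ± 42.4%) lay near the markers (34.0% to 41.5%), and HAS2 ranged over macrophage donors from 0 to 45.9 CPM. The markers thus lay far apart from each other in SCs and close together in macrophages, and their part in the levels of VCAN and HAS2 outside FAPs was not tested.

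**Figure D3:**
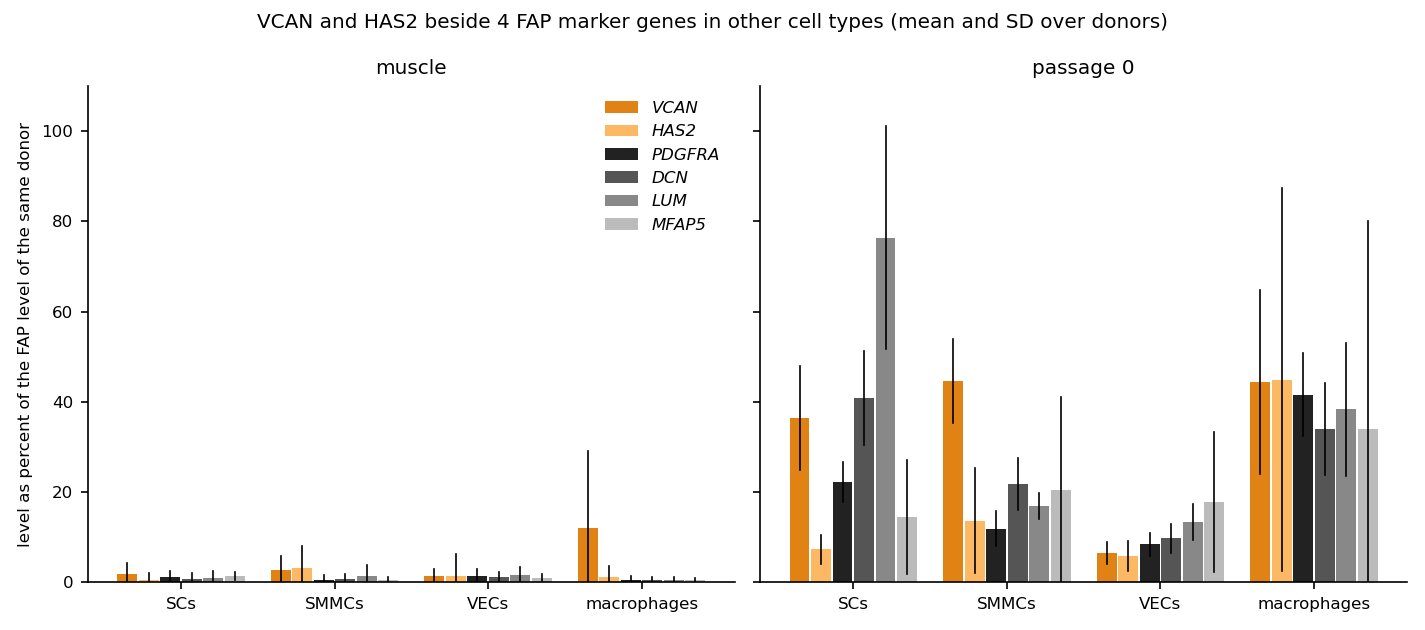
Level of VCAN and HAS2 (orange) and of the FAP markers PDGFRA, DCN, LUM and MFAP5 (grey) in 4 other cell types, as percent of the FAP level of the same donor (vertical axis), in muscle and at passage 0. Bars are means and lines SDs over donors. In muscle the means lie at or below 3.29%, apart from VCAN in macrophages (12.04%), and at passage 0 VCAN stands at 36.4% in SCs and 44.5% in SMMCs, with the markers between 11.9% and 76.3% in these types.

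The changes on entering culture differed between cell types in tests of the difference itself. Against SCs, the change in FAPs was lower for 5 of 6 members, where 20% of all genes were called and 12.4% had a lower change in FAPs. The differences on the log2 scale were -4.04 for VCAN (SE 0.38, adjusted p = 7.05e-11), -2.56 for CD44 (SE 0.21, adjusted p = 4.42e-13), -2.73 for ITIH5 (SE 0.17, adjusted p = 1.46e-16), -2.45 for TNFAIP6 (SE 0.64, adjusted p = 0.00245) and -3.42 for HAS2 (SE 1.28, adjusted p = 0.0307). HAS2 and TNFAIP6, part of the 5, did not pass the filter on low counts in SCs alone. They entered this test through its FAP pseudobulks, so the count of 5 is not to be read against the share of all genes. In muscle SCs HAS2 rested on 1 UMI and TNFAIP6 on 65 UMIs, of which 46 came from donor 6. Thinning all pseudobulks to equal totals left TNFAIP6 at -2.63 (adjusted p = 0.12) and HAS2 untested. Against VECs, the change in FAPs was lower for TNFAIP6 (-4.26, adjusted p = 9.61e-11), ITIH5 (-2.70, adjusted p = 3.36e-05), VCAN (-2.12, adjusted p = 1.38e-04) and HAS2 (-2.26, adjusted p = 0.0491), 4 of 6 members, with 25.6% of all genes called and 11.8% lower. ITIH5 and HAS2 did not pass the filter on low counts in VECs alone and entered this test through its FAP pseudobulks. The count of 4 is thus not to be read against the share of all genes either. HAS2 of muscle VECs rested on 3 UMIs, all from donor 7, with the other 9 donors at 0. After thinning to equal totals ITIH5 (-2.35, adjusted p = 0.0796) and HAS2 (-2.31, adjusted p = 0.0676) were no longer called. CD44 (-0.49) and HYAL2 (0.56) were not called. These comparisons share their FAP pseudobulks and are not independent of each other.

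Through the passages, HAS2 in FAPs and ITIH5 in SCs were the members called. FAPs were compared in the 6 donors of unsorted and FAP cultures, and SCs in the 6 donors of unsorted and SC cultures. From passage 0 to passage 2, HAS2 of FAPs went from 37.7 to 73.2 CPM at passage 0 to 13.2 to 23.5 CPM at passage 2, without overlap. Its log2 fold change was -1.63 (SE 0.19, adjusted p = 7.25e-06), lower in 6 of 6 donors, and it was the 1 of 6 members called where 23.3% of all genes were (9.79% lower). In this step 8355 of 11439 tested genes had an unadjusted p below 0.05. CD44 of FAPs lay at 285 to 496 CPM at passage 2 against 163 to 228 CPM at passage 0, higher in 6 of 6 donors by 0.98 on the log2 scale (SE 0.13, adjusted p = 1.71e-05), just under the size for a call. HYAL2 was lower in 6 of 6 donors by a log2 fold change of -0.62 (adjusted p = 1.64e-05), without overlap (14.5 to 21.0 against 25.6 to 28.3 CPM), TNFAIP6 had -0.57 (adjusted p = 0.0124), and VCAN (-0.18) and ITIH5 (0.34) had adjusted p values of 0.313 and 0.366.

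Later FAP passages brought 0 called members by edgeR without pairing of donors, against backgrounds of 3.34% (passage 5 against 2) and 2.02% (passage 8 against 5). At an unadjusted p below 0.05 were 4066 of 11731 and 3297 of 10929 tested genes in these steps. HAS2 was higher at passage 5 than at passage 2 in 6 of 6 donors (log2 fold change 0.63, adjusted p = 0.0554) and lower at passage 8 than at passage 5 in 6 of 6 donors (-0.91, SE 0.23, adjusted p = 0.0241). Its level over all FAP donors was 15.2 ± 5.29 CPM (n = 8), 23.1 ± 6.71 CPM (n = 9) and 13.2 ± 2.86 CPM (n = 9) at passages 2, 5 and 8. VCAN of FAPs had means of 510 to 631 CPM over these passages and CD44 of 278 to 326 CPM. From passage 5 to 8 VCAN was lower in 6 of 6 donors (log2 fold change -0.25, adjusted p = 0.218) and CD44 in 5 of 6 (-0.22, adjusted p = 0.406), without a call. ITIH5 of FAPs had a log2 fold change of 1.33 from passage 2 to 5 (adjusted p = 0.0936). It was called with the donor as a block (1.14, adjusted p = 0.0216) and by DESeq2 (1.30, adjusted p = 0.0392). Its mean went from 8.331 to 25.06 CPM in the 3 FAP cultures, without overlap. The 3 unsorted cultures went from 4.284 to 5.665 CPM, with overlap, and donor 2 was lower at passage 5. Mean HAS2 over this step went from 16.79 to 30.29 CPM in FAP cultures and from 15.99 to 19.27 CPM in unsorted cultures. The difference between cultures in these changes was not tested.

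ITIH5 of SCs rose again after passage 0. In the 6 donors it lay at 77.1 to 112 CPM at passage 0 and at 274 to 564 CPM at passage 2, with a log2 fold change of 2.06 (SE 0.18, adjusted p = 1.03e-05) and 6 of 6 donors higher. It was the 1 called of 4 members tested, where 8.73% of all genes were called (5.49% higher). The mean over all SC donors was 395 ± 118 CPM (n = 9) at passage 2, 589 ± 138 CPM (n = 7) at passage 5 and 543 ± 138 CPM at passage 8 (n = 4, with 380, 495, 596 and 703 CPM), and 1 donor at passage 5 and 1 at passage 8 lay within the muscle range of 699 to 1138 CPM. The step from passage 2 to 5 was 0.62 on the log2 scale, higher in 6 of 6 donors (adjusted p = 0.127). CD44 of SCs, at 370 ± 56.6, 472 ± 101 and 343 ± 45.8 CPM at passages 2, 5 and 8, had log2 fold changes of 0.28 (adjusted p = 0.199) and 0.23 (adjusted p = 0.429) for the first steps. HYAL2 of SCs had 0.04 (adjusted p = 0.891) from passage 0 to 2. VCAN of SCs was not called in this step and was lower at passage 2 in 4 of 6 donors. In donors 5, 6 and 10, kept as SC cultures, it went from 415.5, 276.9 and 234.3 CPM to 58.3, 67.8 and 60.4 CPM. In donors 1, 2 and 9, kept unsorted, it went from 184.6, 183.3 and 272.5 CPM to 190.6, 185.7 and 248.2 CPM.

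From passage 2 to 5 in SCs, 0 of 5 members were called, against 0.195% of all genes (21 genes, and 246 with the donors paired in a block). HAS2 of SCs was low throughout, with means of 1.56 to 4.69 CPM after passage 0, and was higher at passage 5 than at passage 2 in 6 of 6 donors. Its log2 fold change was 1.61 (SE 0.66, adjusted p = 0.218), which was called in the paired fit (2.01, adjusted p = 0.0253).

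**Figure D4:**
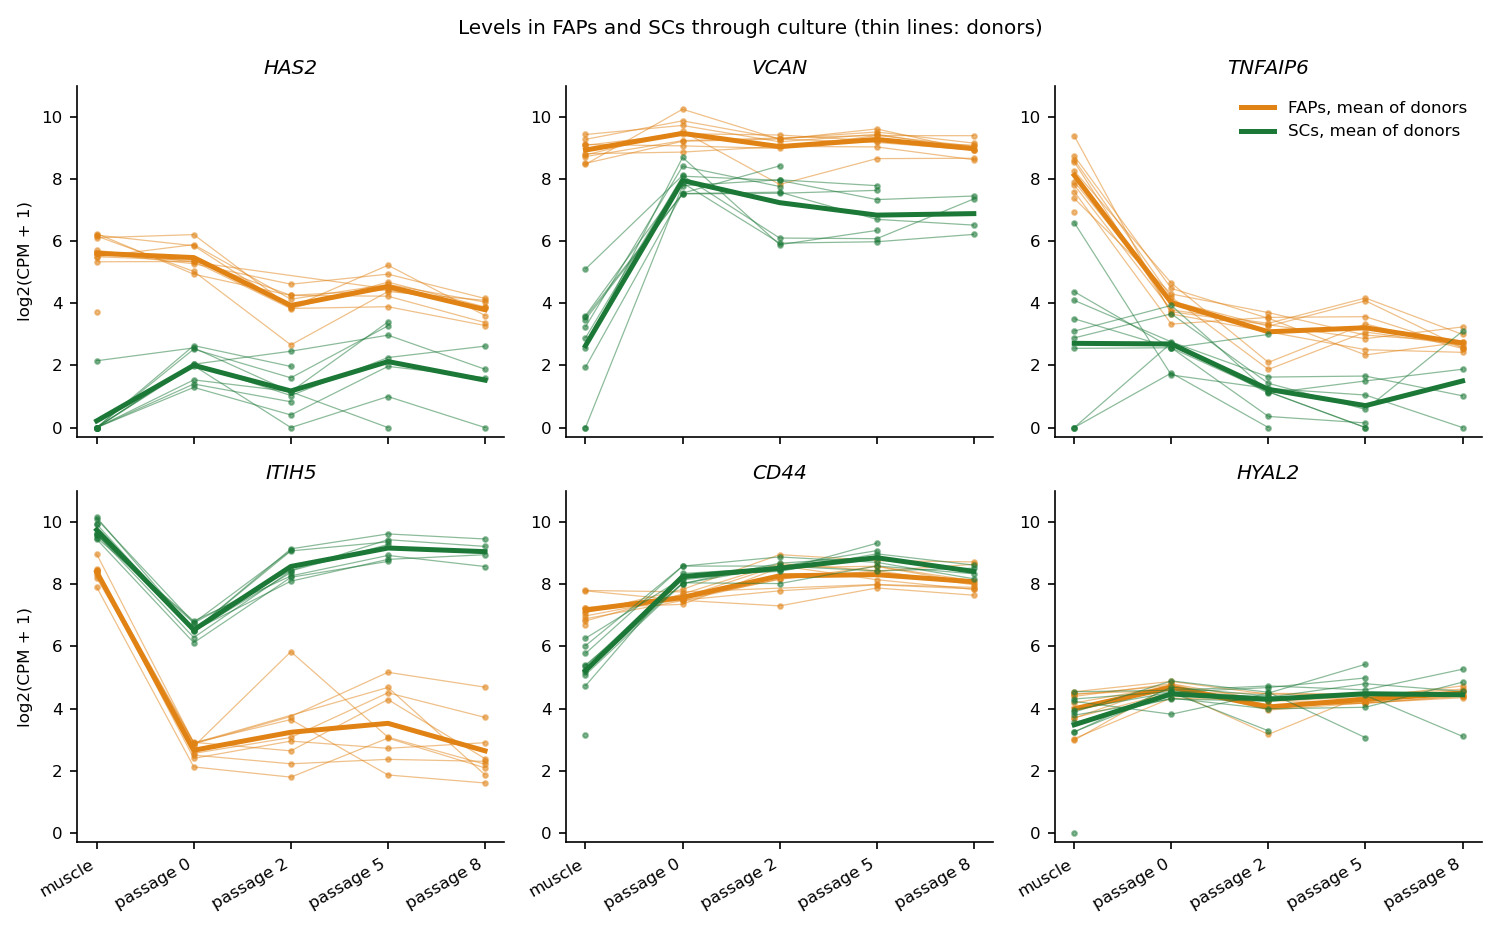
Levels of the 6 genes in FAPs (orange) and SCs (green) in muscle and at passages 0, 2, 5 and 8, as log2(CPM + 1) on the vertical axis, with a thin line per donor and a thick line for the mean of donors. ITIH5 falls in both types at passage 0 and is back at 395 to 589 CPM in SCs from passage 2 on while FAP means stay at 5.41 to 14.1 CPM, HAS2 of FAPs steps down at passage 2 (15.2 CPM), and CD44 and VCAN of SCs rise at passage 0 (306 and 257 CPM).

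The culture in which a cell type was kept went with some of these levels. At passage 2, VCAN of SCs was 58.3 to 67.8 CPM in the 3 SC cultures, 186 to 248 CPM in the 3 unsorted cultures and 216 to 343 CPM among the SCs of the 3 FAP cultures, without overlap between the SC cultures and the rest. The summed FAP markers in these SCs were 1313 to 3029 CPM, 3055 to 6824 CPM and 4699 to 6208 CPM in the same order, and their part in this difference was not tested. In the FAP cultures the SCs of donors 7 and 8 were 50 and 18 cells. The ranges of the other members overlapped between the SC cultures and the rest at passage 2. SCs were not compared between cultures over all genes, so the share of genes with such a separation is not known. At passage 5 VCAN of SCs was 62.3 to 80.5 CPM in SC cultures, 103 to 198 CPM in unsorted cultures and 220.4 CPM in the 1 FAP culture with enough SCs (10 cells). Here the summed FAP markers overlapped between SC and unsorted cultures (2400 to 3175 and 2630 to 3306 CPM), and were 5413 CPM in the FAP culture.

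FAPs that appeared in SC cultures were compared with those of FAP cultures at passage 5 (3 donors each). The 6 members gave 0 calls against 15.9% of all genes. Of 11517 tested genes, 5678 had an unadjusted p below 0.05, and the p-values of members below are to be read against this. CD44 was 235, 252 and 254 CPM in SC cultures and 381, 383 and 434 CPM in FAP cultures, with a log2 fold change of -0.70 (SE 0.09, adjusted p = 4.26e-04). HAS2 was 17.8 to 21.1 CPM against 24.7 to 36.5 CPM (log2 fold change -0.70, adjusted p = 0.0129), and TNFAIP6 was 4.69 to 9.10 CPM against 10.9 to 17.0 CPM (-0.87, adjusted p = 0.0195). Each of these differences was under the size for a call, although TNFAIP6 was called without donor 5 (-1.18) or donor 8 (-1.05). ITIH5, called without donor 6 (-2.80, adjusted p = 0.0109), had -2.03 (adjusted p = 0.0972), VCAN 0.12 (adjusted p = 0.703) and HYAL2 0.08 (adjusted p = 0.86). The FAPs of donor 6 were 31 cells with summed SC markers of 65.7 CPM, where the other SC cultures had 7.68 and 23.8 CPM and the FAP cultures 11.7 to 15.7 CPM. In the FAPs of donor 6, ITGA7 was at 48.1 CPM, MYF5 at 17.6 CPM, and PAX7 and CHRDL2 at 0. PAX7 and CHRDL2 were low in SCs of passage 5 too, with means of 6.75 and 0.00508 CPM. The part of the SC markers in the ITIH5 values was not tested. FAPs of FAP and of unsorted cultures at passage 2 gave 0 calls among the 6 members, with 0.017% of all genes called and an ITIH5 log2 fold change of 0.95 (adjusted p = 0.565). Culture and donors were tied to each other, so they cannot be told apart.

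Age of the donor was compared in FAPs and SCs without a called member. In muscle FAPs, 1.32% of all genes were called, and HAS2 (log2 fold change 0.39 for calves minus adults, adjusted p = 0.517), ITIH5 (0.27, adjusted p = 0.353) and VCAN (-0.38, adjusted p = 0.227) were not. At passage 0 edgeR called 0 genes of all tested in FAPs (575 at an unadjusted p below 0.05, and 8 called by DESeq2) and 0 in SCs (1018 at an unadjusted p below 0.05, and 5 called by DESeq2). CD44 of FAPs at passage 0 was 163 to 185 CPM in calves and 191 to 228 CPM in adults, without overlap, but its log2 fold change of -0.25 (SE 0.06) had an adjusted p of 0.826. In SCs CD44 had -0.28 (adjusted p = 0.429).

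HYAL2 of muscle VECs did separate calves from adults. This comparison was added after the levels of HYAL2 had been seen. The 5 calves were at 69.9, 94.8, 96.1, 106 and 132 CPM, and the 5 adults at 211, 306, 361, 385 and 568 CPM, without overlap. The log2 fold change for calves minus adults was -1.90 (SE 0.23, edgeR adjusted p = 4.31e-04), and HYAL2 was the 1 called of 3 members tested, where 0.796% of all genes were called (0.553% lower). As the split by age had been seen first, the p-values of this comparison, and of the tests of HYAL2 by age that follow, are no independent support for it. Calves and adults had similar depth in these cells (medians of 2734 and 2873 UMIs per cell, from 799 and 367 cells). The summed VEC markers were 2473 to 3180 CPM in calves and 2101 to 2385 CPM in adults, and the summed LEC markers 2.49 to 15.7 CPM and 0 to 31.1 CPM. The summed FAP markers had medians of 283 CPM (44.9 to 675 CPM) and 93.6 CPM (69.9 to 795 CPM), and the SMMC markers of 67.3 CPM (34.9 to 129 CPM) and 31.7 CPM (26.3 to 69.2 CPM), in calves and adults. The part of these markers in the HYAL2 difference was not tested.

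After 72 h in culture the ages overlapped. HYAL2 of VECs at passage 0 was 196 to 330 CPM in the 5 calves and 192 to 361 CPM in the 4 adults, with a log2 fold change of -0.05 (interval -0.52 to 0.42, adjusted p = 1) where edgeR called 0% of all genes (275 at an unadjusted p below 0.05, and 3 called by DESeq2). Mean levels went from 99.8 to 273.5 CPM in calves, higher in each of the 5, and from 366 to 276 CPM in adults. Most of the adult fall was donor 6, from 568.1 to 192.1 CPM. Adults 1, 8 and 9 went from 384.8 to 346.5, 211.2 to 205.3 and 361.2 to 360.6 CPM. Adult 3, at 306.0 CPM, was in the muscle mean alone. The difference between the changes of calves and adults was 1.87 on the log2 scale (SE 0.35, adjusted p = 0.0543 by edgeR), and was not called. With donors paired in a block it was 1.93 (adjusted p = 0.00335) and by DESeq2 1.90 (adjusted p = 0.00111). It was called without donor 6 (1.52, adjusted p = 0.0463) or donor 8 (1.90, adjusted p = 0.00678) and after thinning (1.85, adjusted p = 0.0146) too. It was not called without the filter on low counts (edgeR adjusted p = 0.111) or with at least 30 cells (0.092). Leaving out any other donor gave no call either (adjusted p of 0.0772 to 0.191). The background of this test was 0.0283% of all genes.

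**Figure D5:**
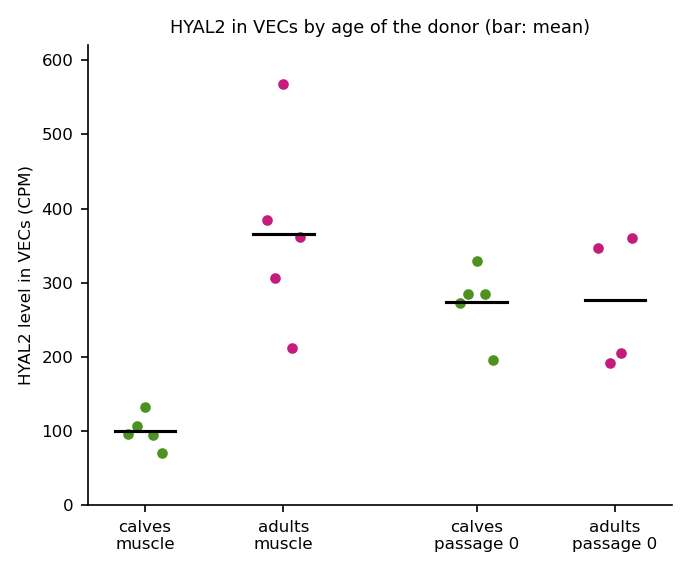
HYAL2 level in VECs (CPM, vertical axis) of calves (green) and adults (magenta) in muscle and at passage 0, with 1 point per donor and a bar at the mean. In muscle the calves lie at 69.9 to 132 CPM and the adults at 211 to 568 CPM, and at passage 0 the ranges of 196 to 330 CPM and 192 to 361 CPM overlap.

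Other genes of the hyaluronan pathway were read from a list of 44 genes found in the matrices. In FAPs from muscle to passage 0, 4 of 23 tested rose and 7 fell, where 20.9% of all genes rose and 22.5% fell, with a median log2 fold change of -0.47 against 0.03 over all genes. PTX3, a pentraxin that binds heavy chains and TNFAIP6 in hyaluronan matrices, rose from 64.1 to 2439 CPM (log2 fold change 5.18, SE 0.47, adjusted p = 7.89e-09). The hyaluronan-binding protein C1QBP (2.52), the motility receptor HMMR (2.44), which is abundant in dividing cells, and the lysosomal glucuronidase GUSB (1.26) rose too. The hyaluronidase HYAL1 (-3.46), the versican-cleaving proteases ADAMTS5 (-3.13) and ADAMTS1 (-2.80, from 196 to 31.3 CPM), and GFPT2 (-2.03) and UAP1 (-1.55), enzymes for the UDP-sugar precursors of hyaluronan, fell most.

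PTX3 was called higher in all 6 cell types tested, where 14.3% to 20.9% of all genes were called higher. It went from 4.86 to 1759 CPM in SCs (log2 fold change 7.91, adjusted p = 1.08e-13), from 4.11 to 1142 CPM in macrophages (7.84), from 4.07 to 728 CPM in SMMCs (6.47), from 0.499 to 288 CPM in VECs (8.63) and from 25.1 to 653 CPM in LECs (4.00, adjusted p = 0.00285). FAPs had the highest level at passage 0, and the summed FAP markers had a higher median at passage 0 in SCs, VECs, SMMCs and macrophages, as given above. Their part in PTX3 was not tested. C1QBP was called higher in all 6 types as well, by 1.32 to 2.52 on the log2 scale, and ADAMTS1 was called lower in 5 of them (-4.82 in SMMCs, -4.26 in VECs, -2.89 in LECs, -2.80 in FAPs and -1.76 in SCs). SCs lost ADAMTS20 (-3.52, from 114 to 12.6 CPM), with 3 of 13 tested pathway genes higher and 2 lower (15.8% and 18.5% of all genes). VECs gained the protease ADAMTS4 (2.92) and lost the scavenger receptor STAB1 (-2.14) and HYAL1 (-2.02), with 5 of 16 higher and 4 lower (15.6% and 19.6% of all genes). SMMCs had 3 of 8 higher and 3 lower (15.1% and 21.3% of all genes), and ADAMTS4 fell there (-3.66, from 589 to 59.9 CPM). The hyaluronan receptor LYVE1 fell in macrophages (-5.02, from 653 to 24.4 CPM) and in LECs (-4.58, from 1616 to 117 CPM), and STAB1 fell in both (-1.97 and -3.54), with 2 of 7 higher and 2 lower in macrophages (14.3% and 20.4% of all genes) and 3 of 9 higher and 4 lower in LECs (14.8% of all genes in each direction).

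Between passages 0 and 2, FAPs had 7 of 27 tested pathway genes higher and 3 lower, where 13.6% of all genes were higher and 9.79% lower. CEMIP, a protein needed for hyaluronan breakdown, rose from 0.147 to 3.71 CPM (log2 fold change 4.57, adjusted p = 3.8e-05), and ADAMTS5 (3.14), ADAMTS20 (2.53) and HYAL1 (2.01) rose with it, while ADAMTS9 (-2.03), C1QBP (-2.03) and HMMR (-1.17) fell. In SCs over the same step ADAMTS1 (1.26) and ADAMTS20 (1.13) rose and GFPT2 (-1.79) and the receptor LAYN (-1.17) fell, of 22 tested (5.49% of all genes higher and 3.24% lower). Later, HMMR of FAPs was lower at passage 5 (-1.11) and higher at passage 8 (1.28), where ADAMTS20 rose (1.05) and ADAMTS4 fell (-1.01). In the FAPs of SC cultures at passage 5, 9 of 29 tested pathway genes were lower than in FAP cultures and 3 higher (7.9% and 7.99% of all genes), among them ADAMTS9 (-3.81), ADAMTS20 (-3.63), GFPT2 (-2.94), ADAMTS5 (-2.78), ADAMTS1 (-2.53) and HMMR (2.09), C1QBP (1.42) and the link protein HAPLN3 (1.34).

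The genes with the most similar profiles were read over 19 groups of cell type and timepoint, from mean log2(CPM + 1) and among 10894 genes, as a description. These groups share donors and libraries. HAS2 was followed by EMX2 (Pearson's r = 0.9397), ALDH1A3 (0.9331) and CCL11 (0.9187), and VCAN by EPS8L2 (0.9674), PRDX4 (0.9536) and ALDH18A1 (0.9524). The neighbours of TNFAIP6 were CYB5A (0.8858), ADAMTSL3 (0.8682) and HIC1 (0.8491), those of ITIH5 were NCAM1 (0.9051), MEST (0.9044) and ESR1 (0.9021). CD44 had EMP3 (0.9324), SLC39A6 (0.918) and LGALS1 (0.911), and HYAL2 had UNC5B (0.9447), PPM1F (0.9362) and TSPAN18 (0.9313). Among the 6 genes themselves, HAS2 and VCAN were the most alike (r = 0.8634) and CD44 and HYAL2 the least (r = -0.6872).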

How the data were processed

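Libraries were made with a droplet kit that counts transcript ends, and the authors aligned reads with Cell Ranger 6.0.1 to ARS-UCD1.2 (Ensembl annotation). They assigned cells to donors by demuxlet, kept cells within set deviations of the median for genes, counts and mitochondrial share, and named clusters. The deposited matrices hold raw UMI counts. Passages 0, 2 and 5 were sequenced in 2 runs, and the 1 matrix of each was taken to join both, which bears on the depths given. The deposited percent of mitochondrial UMIs per cell was read as a quality value. A deposited combined expression table is not raw and was not used. No doublet caller was run here, and demuxlet finds doublets of different donors only.

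UMIs were summed per timepoint, annotated type and donor (at least 10 cells). The donor animal was the replicate, with age and sex from the study's list of donors. Tests used edgeR 4.0.16 in R 4.3.3 (TMM, filterByExpr, robust quasi-likelihood F test, 2-sided), with DESeq2 1.42.0 as an alternative. Intervals are 1.96 standard errors. Shares of cells were thinned to 2000 UMIs. A floor is 3 counts, and floors and exact Poisson intervals cover counting error only. Tables used Python 3.11.15 with pandas 2.3.3 and numpy 2.4.6, and the fits were tested on simulated data.

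The timepoints share their donors, which pairs the samples. Deviations from group means of the same donor correlated by a median of 0.3204 to 0.6119 between passages and of 0.0339 to 0.0716 between muscle and passage 0. The block of donors was an alternative, as were no filter on low counts, at least 30 cells, thinning to equal totals, sex as a covariate and leaving out donors.

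Named were the 6 members, at most 5 called pathway genes per direction with the largest change, and 3 genes of most similar profile. The result of 1 pathway gene is not reported here. Members and lists were chosen with earlier results of these data known. The VEC comparisons by age were added after the data had been seen.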

Additional observations from a re-analysis of the deposited data

Results flagged for a closer look

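In 5 of 75 groups of 4 to 10 donors, 1 donor stood apart from the rest by Dixon's test, where chance gives about 1 in 20 groups. Of 114 such groups, 75 is the number without a donor at 0. Groups with a donor at 0 are not listed here. Among them, TNFAIP6 was 96.1 CPM in donor 6 in muscle SCs (next 19.8 CPM) and 294.9 CPM in donor 6 in muscle lymphocytes (next 64.0 CPM). Among the 75 groups, HAS2 of SMMCs at passage 0 was 22.62 CPM in donor 2 and at most 5.337 CPM in the others. ITIH5 of FAPs was 501.6 CPM in donor 5 in muscle (next 359.3 CPM), 55.95 CPM in donor 10 at passage 2 (next 12.39 CPM) and 24.78 CPM in donor 8 at passage 8 (next 12.12 CPM). VCAN of FAPs at passage 2 was 226.5 CPM in donor 10, below the next lowest donor at 507.0 CPM. The FAPs of donor 10 at passage 2 were 12 cells from an SC culture, and the SMMCs of donor 2 at passage 0 were 31 cells. The summed SC markers in the FAPs of donor 10 at passage 2 were 53.3 CPM, with ITGA7 at 48.0 CPM, MYF5 at 5.33 CPM and PAX7 and CHRDL2 at 0, where the other donors had sums of 8.68 to 13.2 CPM. PAX7 and CHRDL2 were low in SCs of passage 2 too, with means of 3.625 and 0 CPM. The part of the SC markers in the ITIH5 and VCAN values of donor 10 was not tested.

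The change from muscle to passage 0 differed between cell types for several members in the test of the difference itself (edgeR, on the log2 scale, as the FAP change minus the other). Against SCs the differences were -2.4505 for TNFAIP6, -4.0419 for VCAN, -2.5568 for CD44, -2.7347 for ITIH5 and -3.415 for HAS2. Against VECs they were -4.2599 for TNFAIP6, -2.1224 for VCAN, -2.7028 for ITIH5 and -2.2581 for HAS2. HAS2 and TNFAIP6 in SCs, and HAS2 and ITIH5 in VECs, did not pass the filter on low counts in those types alone. They entered these tests through the FAP pseudobulks. After thinning to equal totals the calls of ITIH5 (adjusted p = 0.0796) and HAS2 (adjusted p = 0.0676) against VECs and of TNFAIP6 against SCs (adjusted p = 0.12) were lost and HAS2 against SCs was not tested, and HAS2 against VECs was not called without the filter on low counts (adjusted p = 0.0982). The summed FAP markers had a higher median at passage 0 than in muscle in SCs and VECs, and their part in these differences was not tested.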

How the results depend on the processing

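Of 823 values of single genes under the alternatives, 808 kept their direction and side of the threshold, 4 lost their call, 11 gained one and 0 called values changed direction. Genes untested in the main fit or in the alternative are not among the 823. Left out are thus VCAN of VECs and of SMMCs, and HAS2 in FAPs against SCs, which were called and became untested when thinned. The calls gained by members untested in the main fit, given below, are left out too. Timepoint and library cannot be told apart, each SC, FAP or unsorted culture had 3 donors, and genes under the filter were limited by depth. Without the filter on low counts, the count of called members from muscle to passage 0 was 5 in SCs (HAS2 3.05 and TNFAIP6 -1.80 added), 3 in VECs (ITIH5 -3.23 and HAS2 1.80), 3 in SMMCs (TNFAIP6 -2.73 and ITIH5 -2.29), 2 in macrophages (HAS2 3.52) and 2 in LECs (CD44 5.55 and ITIH5 -2.52), and it was 2 in SCs from passage 0 to 2 (TNFAIP6 -2.51). With at least 30 cells it was 2 in VECs (ITIH5 -3.46) and 3 in SMMCs (TNFAIP6 -2.97 and ITIH5 -2.82). That limit left too few donors for macrophages and LECs. Thinned to equal totals it was 0 in VECs and 0 in SMMCs, as VCAN fell under the filter, 3 for the difference between FAPs and SCs and 2 for that between FAPs and VECs. HAS2 in the latter was -2.14 without the filter (adjusted p = 0.0982).

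With the donor as a block, which pairs the timepoints, 1 member was called in FAPs from passage 2 to 5 (ITIH5 1.14), 1 in SCs from passage 2 to 5 (HAS2 2.01) and 1 in the VEC culture change by age (HYAL2 1.93), and the block changed no other call of a member. DESeq2 called 1 member in FAPs from passage 2 to 5 (ITIH5 1.30) and 1 in the VEC culture change by age (HYAL2 1.90), where thinning called 1 as well (1.85). Leaving out a donor gave 0 to 1 called members in FAPs of SC against FAP cultures (1 without donor 5, 6 or 8) and 0 to 1 in the VEC culture change by age (1 without donor 6 or 8).

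Counts over all genes moved more. From muscle to passage 0 the called genes were 3997 in FAPs (6925 without the filter, 1671 thinned), 1789 in SCs (5286 and 528), 2071 in VECs (5030 and 1203), 1257 in SMMCs (4216 and 504, and 2177 with at least 30 cells), 1003 in macrophages (3389 and 490) and 899 in LECs (1863 and 345). From passage 0 to 2 they were 865 in SCs (1473 and 533), and from passage 2 to 5 they were 21 in SCs (97 by DESeq2, 246 with the block, 7 thinned). The thinned fit called 85 genes where the main fit called 221 in FAPs from passage 5 to 8. In the same order the counts were 1027 and 1830 between SC and FAP cultures, 434 and 1754 for FAPs against SCs, and 985 and 2208 for FAPs against VECs. FAP against unsorted cultures gave 2 (77 by DESeq2, 1 thinned, 0 to 10 leaving out a donor). Age gave 81 in muscle FAPs (152 without the filter, 48 thinned), 0 in FAPs (8 by DESeq2, 1 without donor 10) and 0 in SCs (5 by DESeq2, 40 without donor 6) at passage 0, 36 in muscle VECs (116 without the filter, 58 without donor 8), 0 in VECs at passage 0 (3 by DESeq2, 3 without the filter, 1 without donor 6) and 2 for the VEC culture change by age (19 by DESeq2, 7 without the filter, 0 with at least 30 cells, 1 with the block, 0 to 22 leaving out a donor). The causes were not tested. Of 114 mean levels, 7 moved by more than 1 SD when counts were pooled over donors without TMM, among them VCAN of SCs at passage 2 (76.9 CPM) and HYAL2 of muscle LECs (450 CPM).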

Other observations

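Cell types with too few cells per donor for a comparison also carried these genes, given here as counts pooled over donors with exact Poisson intervals. The 12 glial cells of muscle held ITIH5 at 1474 CPM (59 UMIs, 95% interval 1122 to 1901 CPM), HAS2 at 174.8 CPM (7 UMIs, 70.29 to 360.2 CPM) and TNFAIP6 at 224.8 CPM (9 UMIs, 102.8 to 426.7 CPM). At passage 0 the 48 glial cells held ITIH5 at 278.8 CPM (115 UMIs, 230.2 to 334.6 CPM) and HAS2 at 36.36 CPM (15 UMIs, 20.35 to 59.98 CPM). The 23 tenocytes of muscle (tendon cells) held TNFAIP6 at 295.9 CPM (42 UMIs, 213.3 to 400.0 CPM) and VCAN at 267.8 CPM (38 UMIs, 189.5 to 367.5 CPM), with no HYAL2 UMI, which allows up to 21.14 CPM at the limit of 3 counts (25.99 CPM by the exact Poisson interval). The 51 neutrophils of muscle held VCAN at 324.0 CPM (32 UMIs, 221.6 to 457.4 CPM) and TNFAIP6 at 202.5 CPM (20 UMIs). In the 45 myocytes ITIH5 stood at 180.5 CPM (30 UMIs).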
